A study of Mus musculus with 8 samples.

Results

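The genes described here are 3 FOXO transcription factor genes, Foxo1, Foxo3 and Foxo4, and 6 genes that FOXO factors are known to induce, Cited2, Pik3ip1, Sesn3, Ccng2, Bcl6 and Gadd45a. They were taken as the rows of the deposited count table that carry these symbols. No threshold on their values was applied, but the list of names was drawn up with earlier results of these data known. All 9 symbols were found once each among 39179 genes, and all 9 had enough reads to be among the 13626 genes tested.

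FOXO factors are forkhead transcription factors that act at the end of the insulin and growth factor pathway. When PI3K is active, AKT phosphorylates them, 14-3-3 proteins hold them in the cytoplasm, and their targets fall silent. When PI3K signalling is low they enter the nucleus and induce genes of cell cycle arrest, stress resistance, catabolism and feedback on the pathway itself. Because FOXO activity is set largely by phosphorylation, the mRNA levels given here measure the transcripts of the factors and of their targets, not FOXO activity.

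The antibody arm consists of 4 libraries of epithelial cancer cells from mouse pancreas that had been co-cultured for 72 h with pancreatic stellate cells in the presence of 20 µg/mL of an SHH-neutralizing antibody. The other arm consists of 4 libraries from the same co-culture with no SHH antibody, and the labels name no control antibody for it. All libraries share the strain (FVB/B6 mix), the medium with 0.5% dialyzed serum and the genotype, whose alleles in the labels include p48Cre, ROSA_rtTAL+ and p53L+. In this model Cre is driven by p48, a gene of pancreatic progenitors, and rtTA is a tetracycline-responsive activator. The labels state neither the number of mice behind the cancer cells nor any doxycycline in the medium. The cancer cells carried GFP and the stellate cells RFP, the culture was resolved by cell sorting, and only the polyA RNA of the GFP cells was sequenced. The comparison asks how the cancer cell transcripts differ when SHH, a ligand to which stellate cells respond, is neutralized in a culture that holds both cell types.

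The libraries held 14953255 to 15733280 counts with the antibody and 10009711 to 14602784 without, so that the antibody libraries were all deeper. Epithelial markers were abundant, the 6 of them taking 0.729% to 0.78% of counts with the antibody and 0.668% to 0.777% without. Epcam was the 1 of the 6 that was called, as higher (log2 fold change 0.28 ± 0.08 SE, adjusted p = 0.022). The 12 stellate and fibroblast markers took 0.00259% to 0.00527% with the antibody and 0.00262% to 0.00463% without, and of these Dcn and Lum had 0 counts in every library. The collagen transcripts among them were present, with 101 to 287 counts of Col1a1, 74 to 317 of Col1a2 and 12 to 99 of Col3a1 per library. Of the 5 tested, Pdgfra was called, as lower (log2 fold change -0.84, adjusted p = 0.00271). The other 4 had higher means with the antibody and did not pass the test, at 0.36 for Col1a1, 0.47 for Col1a2, 0.66 for Col3a1 and 0.61 for Pdgfrb, with a median of 0.47 over the 5. That is a called share of 20% for stellate markers and 16.7% for epithelial ones, beside 8.4% of all genes tested, and the part of either cell type in the results below was not tested. In replicate 1 without antibody 6.48% of counts came from the mitochondrial genome, where the other 7 libraries had 4.1% to 5.02%. The spread between libraries was larger without the antibody, with a biological coefficient of variation of 6.98%, against 3.25% with it. Pairs of libraries within an arm were also compared by a chi-square per degree of freedom over genes. Without the antibody, pairs with replicate 1 had 9.28, 10.8 and 11.3, and the remaining pairs 1.79, 4.62 and 3.94. Pairs with the antibody had 1.72 to 3.72, so that replicate 1 without antibody stood furthest from the rest of its arm.

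Of the 9 genes, 4 differed between the arms, 1 higher and 3 lower with the antibody. Foxo3 rose by a small amount, while the targets Cited2, Gadd45a and Bcl6 fell, Cited2 by the most. Foxo1, Foxo4, Pik3ip1, Sesn3 and Ccng2 did not pass the test, for which a gene counts as called at an adjusted p under 0.05 (quasi-likelihood F test of edgeR, adjusted by Benjamini and Hochberg over all genes tested). Over all genes tested, 8.4% were called, 4.53% as higher and 3.87% as lower. The libraries of the arms did not overlap in 4 of the 9 genes, the same 4 that were called, where 14.3% of all genes tested had arms that did not overlap, 7.69% with the antibody arm higher and 6.56% with it lower. The median log2 fold change of the 9 genes was -0.0031 and that of all genes tested -0.0044, while the median size of the log2 fold change, whatever its sign, was 0.26 for the 9 genes and 0.089 for all. In bulk RNA, a lower level in every cell and fewer cells that carry the transcript cannot be told apart.

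**Figure D1:**
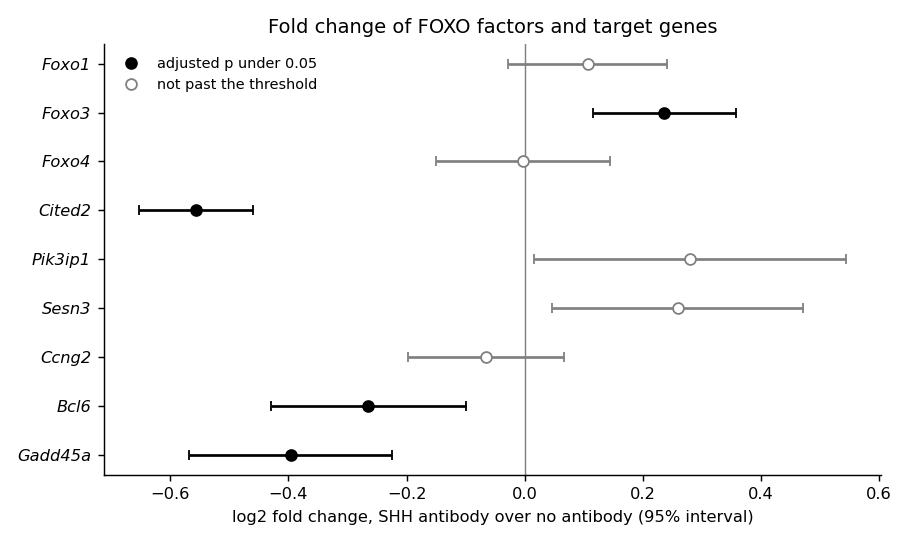
Log2 fold change of each of the 9 genes, SHH antibody over no antibody (x axis), with its 95% interval from edgeR. Filled points passed an adjusted p of 0.05, and these are Foxo3 to the right of 0 and Cited2, Bcl6 and Gadd45a to the left.

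Levels between genes are compared per kilobase, as the authors' RPKM. The order, and the shares of the 3 factors given below, rest on the gene lengths behind those values. For Foxo1 that length is 5552 bases, where the GENCODE annotation has 8665 exonic bases. Whether the order holds with other lengths was not tested. Cited2 had the highest level in both arms, 50.1 ± 1.82 RPKM with the antibody and 73.3 ± 1.5 RPKM without (SD, n = 4 each). Ccng2 came next with 28.5 ± 0.35 RPKM with the antibody and 29.6 ± 3.57 RPKM without, followed by Gadd45a with 16.1 ± 1.58 RPKM with the antibody and 20.9 ± 2.48 RPKM without. Each of these stood apart from the gene below it in every library of its arm. Foxo1, Sesn3 and Foxo4 lay close together. With the antibody Foxo1 overlapped Sesn3 and Sesn3 overlapped Foxo4, and without it Foxo1 overlapped Foxo4 and Foxo4 overlapped Sesn3, so that the order of these 3 is not resolved. Foxo3, at 6.52 ± 0.36 RPKM with the antibody and 5.49 ± 0.26 RPKM without, was the lowest of the 3 factors. Below it came Bcl6, with 2.47 ± 0.16 RPKM with the antibody and 2.96 ± 0.14 RPKM without. Pik3ip1 was the lowest of all, with 1.79 ± 0.19 RPKM with the antibody and 1.46 ± 0.20 RPKM without, and neither of these overlapped its neighbours.

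**Figure D2:**
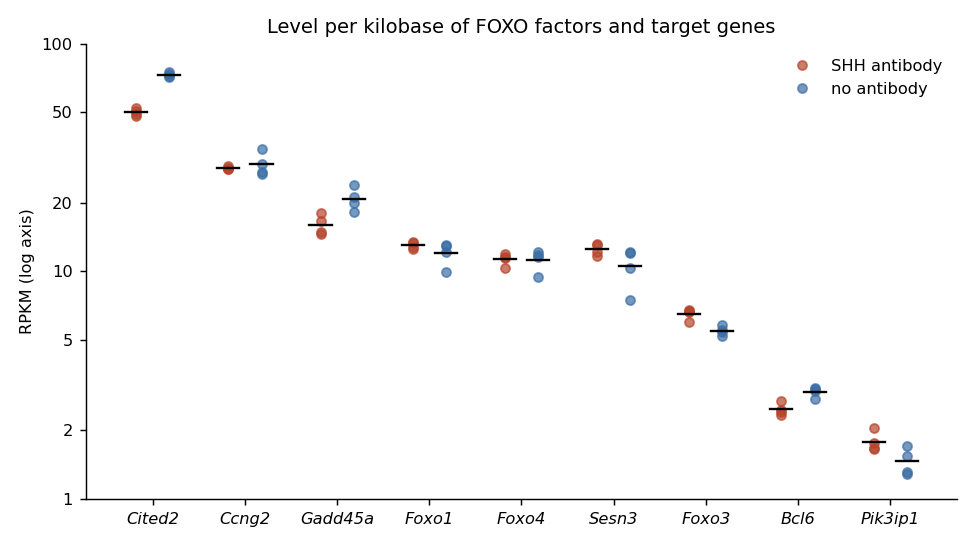
RPKM of the 9 genes in each library on a log axis, SHH antibody left of no antibody, ordered by the mean without antibody. Points are libraries and bars are means of 4. Cited2 stands highest in both arms, at 50.1 RPKM with the antibody and 73.3 RPKM without.

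Among the factors, Foxo3 was the only one called, and no test compared the factors with each other. Foxo3 (ENSMUSG00000048756, chromosome 10, 42181841 to 42276755, minus strand, GRCm38) encodes a factor known for the induction of death, arrest and antioxidant genes. It had 50.1, 45.2, 51.1 and 50.4 CPM in the antibody libraries and 40.1, 41.8, 40.8 and 44.1 CPM in those without. All 4 antibody libraries were above all 4 others, with the lowest of the antibody arm (replicate 2) at 45.2 CPM and the highest of the other (replicate 4) at 44.1 CPM. The mean was 49.2 ± 2.68 CPM with the antibody and 41.7 ± 1.76 CPM without (SD, n = 4 each), a rise of 17.8% (log2 fold change 0.24 ± 0.06 SE, adjusted p = 0.0127). The call was lost without replicate 3 of the antibody arm (log2 fold change 0.22, adjusted p = 0.0608). It was lost as well on the authors' RPKM values, at an adjusted p of 0.0601 with a pseudocount of 1 and again 0.0601 with a pseudocount of 0.1.

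Foxo1 (ENSMUSG00000044167, chromosome 3, 52268337 to 52350109, plus strand), the factor best known for insulin-regulated metabolism, did not pass the test. It had 73.8, 74.2, 71.1 and 69.7 CPM with the antibody and 56.1, 68.0, 72.4 and 71.9 CPM without. The arms overlap, and replicate 1 without antibody lies far below the other 7 libraries. Its log2 fold change of 0.11 ± 0.07 SE had an adjusted p of 0.373 and a 95% interval of the fold from 0.98 to 1.18. With replicate 1 without antibody left out, the log2 fold change was 0.026 (adjusted p = 0.81). In the GENCODE annotation, exons of the antisense gene Gm20402 cover 7.78% of the 8665 exonic bases of Foxo1. Gm20402 itself had 0 to 3 counts in these libraries. The deposited RPKM values rest on a shorter Foxo1 of 5552 bases, for which the overlap was not measured.

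Foxo4 (ENSMUSG00000042903, chromosome X, 101254528 to 101260873, plus strand), the third factor, had 39.6, 35.8, 41.3 and 40.4 CPM with the antibody and 33.4, 40.4, 41.1 and 42.5 CPM without. The arms overlap throughout, and the lowest library is again replicate 1 without antibody. The log2 fold change was -0.0031 ± 0.07 SE (adjusted p = 0.989), with a 95% interval of the fold from 0.90 to 1.11. Its sign changed with the scale and with the libraries left out. Of the summed RPKM of the 3 factors, Foxo1 made up 42.3% ± 2.04 with the antibody and 41.8% ± 1.11 without (SD, n = 4 each, no test made). Foxo4 made up 36.6% ± 1.40 with the antibody and 39.1% ± 0.52 without, and Foxo3 21.1% ± 0.65 with the antibody and 19.2% ± 1.43 without. The share of Foxo4 did not overlap between the arms, at 34.7% to 37.7% with the antibody and 38.4% to 39.5% without. The RPKM of Foxo4 itself was 11.3 ± 0.69 with the antibody and 11.3 ± 1.24 without. The means of Foxo1 and Foxo3, the other parts of the sum, were higher with the antibody. Replicate 1 without antibody, the lowest of its arm for Foxo1 and Foxo4, had 9.98 and 9.46 RPKM of these. With it left out, the log2 fold change was -0.079 for Foxo4 (adjusted p = 0.477) and 0.026 for Foxo1 (adjusted p = 0.81). Which part of the sum made the share of Foxo4 lower was not tested. How often such shares do not overlap for other genes was not tested. Foxo6, the remaining mammalian FOXO gene, had 3 to 9 counts per library and was too low for the test, where 3 counts correspond to 0.19 to 0.30 CPM.

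**Figure D3:**
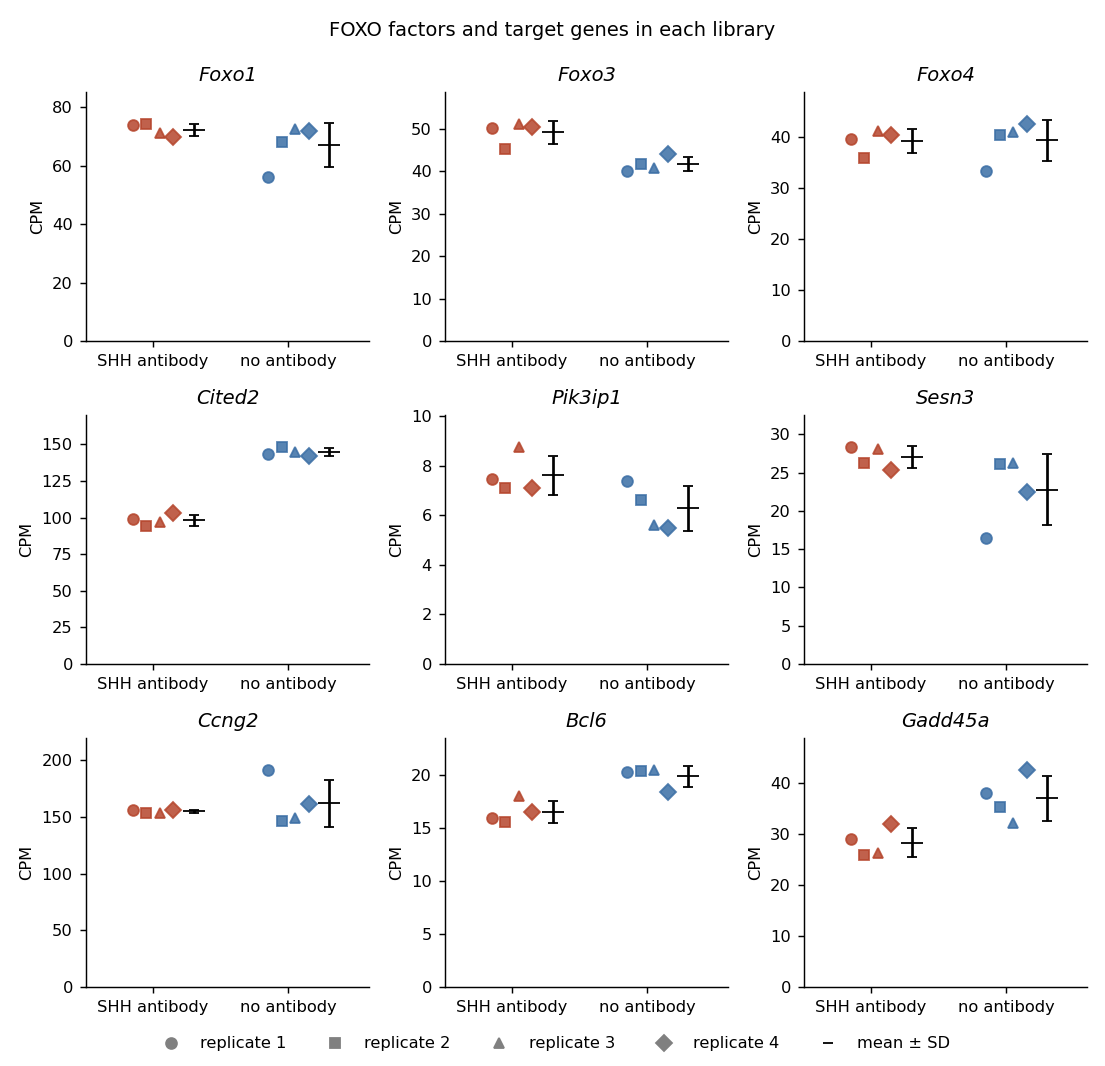
CPM of each of the 9 genes in each library (y axis from 0), SHH antibody left of no antibody, with marker shapes for replicates 1 to 4 and mean ± SD beside each group. The arms are apart for Foxo3, Cited2, Bcl6 and Gadd45a, and replicate 1 without antibody is the lowest library for Foxo1, Foxo4 and Sesn3 and the highest for Ccng2.

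Cited2 showed the largest change of the 9. Its protein binds the coactivators CBP and p300 and limits transcription by HIF-1, and the gene (ENSMUSG00000039910, chromosome 10, 17723228 to 17725673, plus strand) is induced by FOXO3. It had 99.03, 94.3, 96.9 and 103.1 CPM in the antibody libraries, against 143.2, 148.2, 145.0 and 142.3 CPM in the libraries without. The arms were wide apart relative to the spread within each, with a coefficient of variation of 3.77% with the antibody and 1.78% without. The mean was 98.4 ± 3.71 CPM with the antibody and 144.7 ± 2.58 CPM without (SD, n = 4 each), a fall to 0.68 of the level without antibody (log2 fold change -0.56 ± 0.05 SE, adjusted p = 1.034e-07). By p-value Cited2 ranked number 6 of the 13626 genes tested. The call held in all 8 fits that left out 1 library and under every other alternative tried, with log2 fold changes from -0.58 to -0.54.

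Of the 9 genes, 8 had a promoter sequence in the RefSeq table (GRCm38.p6), reaching from 250 bases before the start site to 50 after it. Each was searched on both strands for 4 forkhead words and for the core of the insulin response element, to which FOXO factors bind. Of the 32851 promoters of that length in the table, GTAAACA was in 3.65%, while GCAAACA was in 5.07%. The word ATAAACA was in 4.6%, and ACAAACA was in 6.61%, so that 17.7% held at least 1 of these. The core CAAAACA of the insulin response element was in 6.28%. The words share their last letters and can overlap. Of the 8 genes searched, 2 held a word, Cited2 the second forkhead word and Ccng2 the insulin response core. At least 1 of the 5 words was in 22.2% of all promoters in the table. The promoters of these 2 genes are shown because they are the ones with a word. They belong to the target that fell most and to an abundant target with no called change. In the first (chr10:17722978-17723277, plus strand) the capitals mark TGTTTGC, the reverse complement of GCAAACA, which starts 84 bases before the start site. In the second (chr5:93267323-93267622, plus strand) they mark CAAAACA, which starts 16 bases before the start site of that RefSeq entry. The whole second stretch lies within Ccng2 as counted, which starts further upstream at 93267257. A match is a description of these letters and not evidence of binding.
Cited2: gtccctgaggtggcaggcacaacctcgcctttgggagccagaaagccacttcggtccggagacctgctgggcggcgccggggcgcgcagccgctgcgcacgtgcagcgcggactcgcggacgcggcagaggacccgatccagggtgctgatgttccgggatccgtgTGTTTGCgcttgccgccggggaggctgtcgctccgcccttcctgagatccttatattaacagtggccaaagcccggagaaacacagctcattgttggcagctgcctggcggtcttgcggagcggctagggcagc
Ccng2: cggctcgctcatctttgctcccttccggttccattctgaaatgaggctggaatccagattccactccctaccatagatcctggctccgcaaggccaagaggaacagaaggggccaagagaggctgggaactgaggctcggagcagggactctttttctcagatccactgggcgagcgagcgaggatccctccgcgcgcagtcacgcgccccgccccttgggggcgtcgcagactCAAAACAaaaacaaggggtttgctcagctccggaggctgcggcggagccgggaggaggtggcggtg

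Gadd45a (ENSMUSG00000036390, chromosome 6, 67035096 to 67037457, minus strand), a growth arrest gene induced by DNA damage, p53 and FOXO, had 29.0, 25.8, 26.2 and 31.9 CPM with the antibody and 37.9, 35.3, 32.1 and 42.5 CPM without. The arms did not overlap, but only just, since replicate 4 with the antibody stood at 31.9 CPM and replicate 3 without it at 32.1 CPM. The mean was 28.3 ± 2.83 CPM with the antibody and 37.0 ± 4.38 CPM without (SD, n = 4 each; log2 fold change -0.40 ± 0.08 SE, adjusted p = 0.00332). The fall was called under every alternative tried, with log2 fold changes from -0.46 to -0.26, the smallest without replicates 1 and 4 of the arm without antibody (adjusted p = 0.0311). Exons of E230016M11Rik on the other strand cover 19.1% of the exonic bases of Gadd45a, and that gene had 3 to 15 counts per library.

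Bcl6 (ENSMUSG00000022508, chromosome 16, 23965052 to 23988852, minus strand), a zinc finger repressor of transcription, had 15.9, 15.6, 18.02 and 16.6 CPM with the antibody and 20.3, 20.4, 20.5 and 18.4 CPM without. The arms did not overlap, with replicate 3 the highest of the antibody arm and replicate 4 the lowest of the other. The mean was 16.5 ± 1.07 CPM with the antibody and 19.9 ± 1.01 CPM without (SD, n = 4 each; log2 fold change -0.26 ± 0.08 SE, adjusted p = 0.0404). This call stood near the threshold and was lost in 10 of 19 alternatives, although the sign never changed. Leaving out 1 antibody library ended it for replicates 1, 2 and 4, at adjusted p of 0.101, 0.138 and 0.085. Leaving out 1 of the other libraries ended it for replicates 1, 2 and 3, at adjusted p of 0.055, 0.0859 and 0.088. DESeq2 (adjusted p = 0.0583), the replicate number as a block (adjusted p = 0.0555) and the RPKM values with a pseudocount of 1 (adjusted p = 0.0923) or 0.1 (adjusted p = 0.107) did not call it either.

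Sesn3 and Pik3ip1, the targets that feed back on growth signalling, had higher means with the antibody but did not pass the test. Sesn3 (ENSMUSG00000032009, chromosome 9, 14276301 to 14326138, plus strand) encodes a sestrin, which restrains mTORC1. It had 28.3, 26.3, 28.1 and 25.4 CPM with the antibody and 16.4, 26.1, 26.2 and 22.4 CPM without. Apart from replicates 1 and 4 without antibody, which were low, the libraries lay between 25.4 and 28.3 CPM. At 0.26 ± 0.10 SE the log2 fold change had an adjusted p of 0.13, with a fold between 1.03 and 1.39 at 95% confidence. With replicate 1 without antibody left out it was 0.13 (adjusted p = 0.323), and with replicates 1 and 4 of that arm left out it was 0.046 (adjusted p = 0.767). The fit with no filter on low counts did call it (log2 fold change 0.26, adjusted p = 0.0162).

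Pik3ip1 (ENSMUSG00000034614, chromosome 11, 3330401 to 3342971, plus strand) encodes a membrane protein that inhibits PI3K. It was the rarest of the 9, with 7.45, 7.11, 8.74 and 7.11 CPM with the antibody and 7.40, 6.60, 5.62 and 5.47 CPM without. Replicate 1 without antibody lies within the antibody arm, and the other 3 libraries lie below it. The log2 fold change was 0.28 ± 0.13 SE (adjusted p = 0.201), with a 95% interval of the fold from 1.01 to 1.46. At 60 to 133 counts per library it was measured less precisely than the others. Its exons share 2.13% of their bases with those of Gm12592 on the other strand, a gene with 3 to 12 counts.

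Ccng2 (ENSMUSG00000029385, chromosome 5, 93267257 to 93276231, plus strand) encodes cyclin G2, a cyclin linked to arrest rather than division and a frequently used reporter of FOXO activity. It had 156.5, 153.7, 153.5 and 156.2 CPM with the antibody and 191.4, 146.2, 149.0 and 161.3 CPM without. The antibody libraries were almost equal, and the others spread to both sides of them, with replicate 1 far above. A log2 fold change of -0.066 ± 0.06 SE gave an adjusted p of 0.604 and a 95% interval of the fold from 0.87 to 1.05. With replicate 1 without antibody left out it was 0.023 (adjusted p = 0.81).

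**Figure D4:**
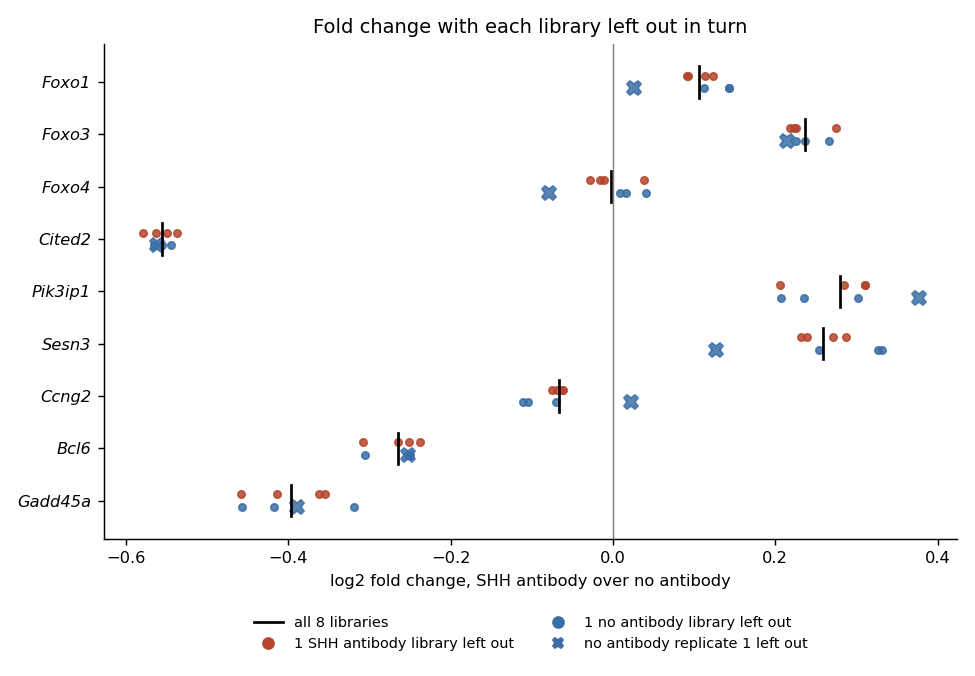
Log2 fold change of each gene (x axis) when 1 library is left out, with a black bar for all 8 libraries. Leaving out replicate 1 without antibody (crosses) moves Foxo1 to 0.026, Sesn3 to 0.13 and Ccng2 to 0.023, and leaves Cited2 at -0.56.

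Other genes that FOXO factors are reported to induce went in both directions. The list of 31 names also holds the factor gene Foxo6, which was too low for the test. Of the 31, 24 were tested, of which 1 rose, 5 fell and 18 did not pass the test. The median log2 fold change of those tested was -0.056. The called share was 25%, beside 8.4% of all genes tested. The gene that rose was Erbb3, a receptor of the EGF receptor family, with 58.4 ± 3.65 CPM with the antibody and 46.9 ± 2.23 CPM without (log2 fold change 0.31 ± 0.06 SE, adjusted p = 0.00122). Cdkn1a, which encodes the cell cycle inhibitor p21 and is also a p53 target, fell to 36.1 ± 2.40 CPM with the antibody, against 47.1 ± 4.43 CPM without (log2 fold change -0.38 ± 0.07 SE, adjusted p = 0.00098). Ddit4, a stress-induced inhibitor of mTORC1 (log2 fold change -0.33 ± 0.05 SE, adjusted p = 0.00035), and Txnip, which binds thioredoxin and limits glucose uptake (-0.32 ± 0.06 SE, adjusted p = 0.00072), fell as well. These 4 were called under every alternative tried.

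Bcl2l11, which encodes the death protein BIM (log2 fold change -0.26 ± 0.07 SE, adjusted p = 0.03), and Fbxo32, the ubiquitin ligase atrogin-1 (-0.28 ± 0.09 SE, adjusted p = 0.0437), fell with less certainty. Each was called in 2 of the 8 fits in which 1 library was missing. Bcl2l11 lost its call when antibody replicate 1, 3 or 4 was left out, at adjusted p of 0.0907, 0.0794 and 0.0665, and when replicate 2, 3 or 4 without antibody was, at adjusted p of 0.0612, 0.0668 and 0.0544. Fbxo32 lost it when antibody replicate 1, 2, 3 or 4 was left out, at adjusted p of 0.0906, 0.136, 0.103 and 0.0661, and when replicate 2 or 4 without antibody was, at adjusted p of 0.0856 and 0.144. On the RPKM values neither was called, with adjusted p of 0.0895 and 0.107 for Bcl2l11 and 0.132 and 0.149 for Fbxo32 at pseudocounts of 1 and 0.1. Fbxo32 was not called either by DESeq2 (adjusted p = 0.0606), with the replicate number as a block (adjusted p = 0.06) or without replicates 1 and 4 of the arm without antibody (adjusted p = 0.126). Of targets often used as FOXO reporters, Cdkn1b, which encodes p27 (log2 fold change 0.011, adjusted p = 0.941), Sod2 (-0.017, adjusted p = 0.907), Irs2 (-0.15, adjusted p = 0.395) and Insr (-0.068, adjusted p = 0.451) did not pass the test. They were picked for display after their values were seen. The liver and muscle targets Igfbp1 and Trim63 and the death ligand gene Tnfsf10 had 0 counts in every library.

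Of 8 relatives of the 6 target genes 6 were tested, of which 2 fell and none rose, with a median log2 fold change of -0.21. The called share was 33.3%, beside 8.4% of all genes tested and 3.87% called as lower. Sesn2, the sestrin induced by ATF4 and p53, fell to 32.3 ± 1.88 CPM with the antibody, against 42.0 ± 3.90 CPM without (SD, n = 4 each; log2 fold change -0.37 ± 0.07 SE, adjusted p = 0.00122). Gadd45b, a stress-induced relative of Gadd45a, fell to 17.0 ± 1.58 CPM with the antibody, against 22.1 ± 0.70 CPM without (log2 fold change -0.38 ± 0.08 SE, adjusted p = 0.00364). Both were called under every alternative tried. Sesn1, the sestrin induced by p53 and FOXO, did not pass at -0.25 ± 0.08 SE (adjusted p = 0.0614). When replicate 1 without antibody was left out, Sesn1 was called as lower (adjusted p = 0.0373), as it was with voom sample weights (adjusted p = 0.0409). The sestrin transcripts thus stood on both sides of 0, Sesn3 at 0.26 without a call, Sesn1 at -0.25 without a call and Sesn2 at -0.37 with one.

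All 29 regulators of FOXO were tested, of which 2 rose and none fell, with a median log2 fold change of 0.031. The called share of 6.9% was near the 8.4% of all genes tested. Skp2, a ubiquitin ligase subunit that marks FOXO1 for degradation and is needed for entry into S phase, rose to 44.2 ± 1.68 CPM with the antibody, against 36.3 ± 1.46 CPM without (SD, n = 4 each; log2 fold change 0.29 ± 0.06 SE, adjusted p = 0.00243). Ywhah, a 14-3-3 protein gene, rose by 0.17 ± 0.05 SE on the log2 scale (adjusted p = 0.0286). Ywhah lost its call when antibody replicate 1, 2 or 3 was left out, at adjusted p of 0.0686, 0.127 and 0.105, and when replicate 3 without antibody was (adjusted p = 0.0908). On the RPKM values Ywhah was not called either, at adjusted p of 0.0511 and 0.0516 with pseudocounts of 1 and 0.1. In each of these fits the count of called regulators was 1.

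The AKT kinases that phosphorylate FOXO were examined as Akt1 and Akt2, and neither passed the test. The log2 fold change of Akt1 was 0.031 (adjusted p = 0.772), or -0.047 without replicates 1 and 4 of the arm without antibody, and that of Akt2 was -0.18 (adjusted p = 0.0651). When replicate 1 without antibody was left out, Akt2 was called as lower (adjusted p = 0.0252), as it was with voom sample weights (adjusted p = 0.0361). Without both replicates 1 and 4 of that arm 9 of the 29 regulators were called, and 2263 of all 13914 genes then tested.

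**Figure D5:**
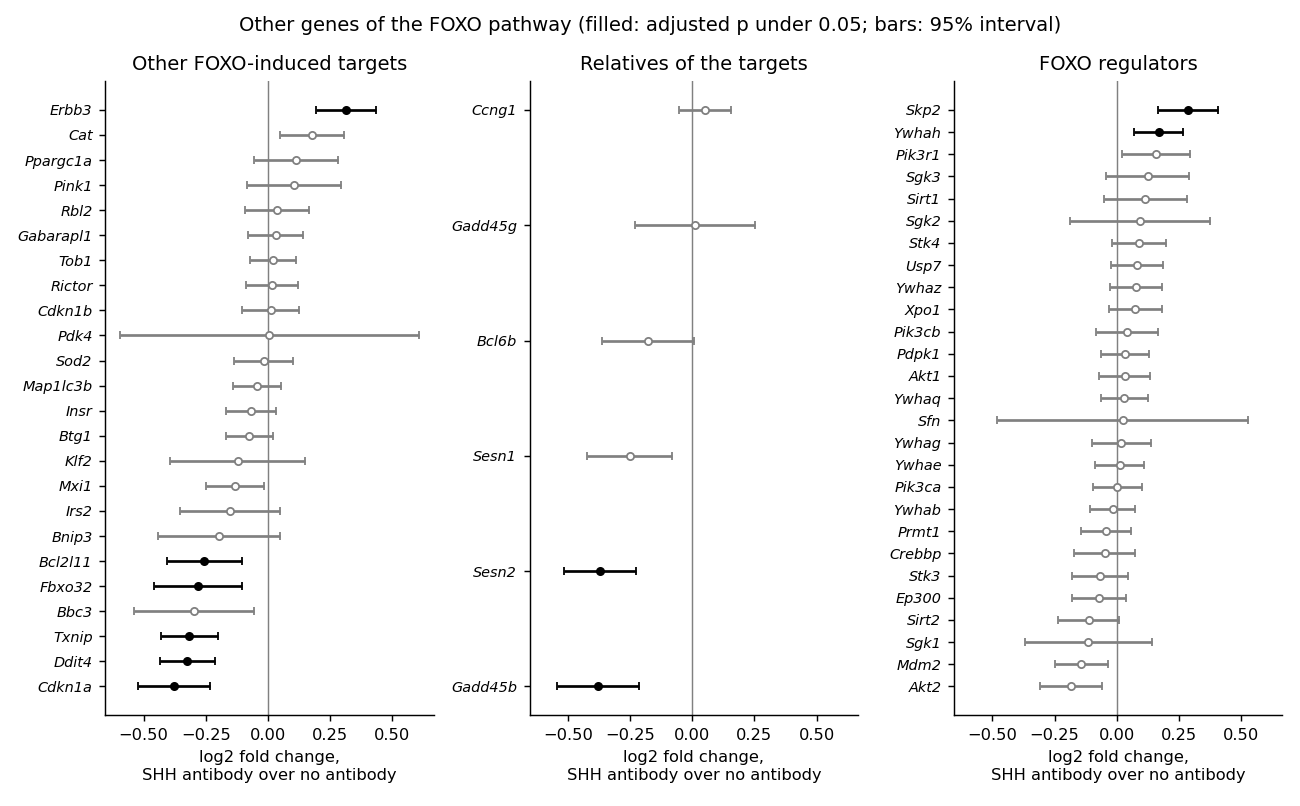
Log2 fold change, SHH antibody over no antibody (x axes), with 95% intervals for 24 other FOXO-induced targets, 6 relatives of the described targets and 27 of the FOXO regulators. Filled points passed an adjusted p of 0.05, which 1 target on the right and 5 on the left did, together with 2 relatives on the left and 2 regulators on the right.

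Among 9181 genes that averaged 10 CPM or more, those whose log2 CPM over the 8 libraries was most like that of Foxo1 were Bms1 (Pearson r = 0.989) and Ptpn14 (r = 0.975). For Foxo3 they were Trim37 (r = 0.984) and Hmgcll1 (r = 0.969), and for Foxo4 Mcm3ap (r = 0.954) and Tfg (r = 0.949). These values describe 8 points that share their libraries, depths and arms. Leaving out replicate 1 without antibody lowered the likeness of Bms1 to Foxo1 to 0.927 and that of Ptpn14 to 0.776. For Foxo4 it lowered that of Mcm3ap to 0.887 and that of Tfg to 0.866. For Foxo3 the values were then 0.978 for Trim37 and 0.976 for Hmgcll1. Trim37 (log2 fold change 0.23, adjusted p = 0.0171) and Hmgcll1 (0.27, adjusted p = 0.00443) were themselves called as higher with the antibody. The genes most like Foxo1 and Foxo4 were not called. As deviations from the mean of each arm, r with Foxo3 was 0.95 for Trim37 and 0.844 for Hmgcll1. All were picked for the highest r in these same libraries.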

How the data were processed

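Directional polyA libraries were read from both ends, per the labels' protocols. The submitters' processing notes name CASAVA 1.8.2, TopHat2 2.0.9 and GRCm38. How reads were assigned to genes, with which annotation and whether by strand, is not given in the sources used here. Raw counts per gene and RPKM values are what the authors deposited. Over 17655 genes with counts in at least 4 libraries, the deposited RPKM was the count over a fixed gene length and the library total (lengths equal within 0.01 bases).

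Libraries were grouped by the labelled treatment. Titles with "minus" belong to the antibody arm. The labels call the samples of an arm biological. As a check for repeat deposits of 1 library, which says nothing of how libraries were prepared, pairs within an arm were compared, and none agreed within sampling noise (chi-square per degree of freedom 1.72 to 11.3). The count test was that of edgeR 4.0.16 in R 4.3.3 (TMM, filterByExpr, quasi-likelihood F test, Benjamini-Hochberg), fitted to all genes with the arm as its sole term. Standard errors derive from the F statistic. CPM are counts scaled to library totals with TMM factors. Alternatives used DESeq2 1.42.0 and limma 3.58.1. Exon overlaps were taken from a GENCODE annotation of GRCm38. The procedure was also run on simulated counts with known changes, drawn with the same spread in both arms. That run does not show how the procedure behaves where the spread differs between arms, as it does here.

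The 9 genes and the gene lists were chosen with earlier results of these data known. Genes named by rule were all 9, of each list up to 6 called genes with the smallest p, some fixed relatives and kinases, and the 2 genes most like each factor. Cell type markers, uncalled reporters and targets at 0 counts were named in addition, after their values were seen. Some genes and 1 allele are not reported here, though genes so left out still count in the list totals. Intervals and floors of 3 counts cover counting error only where no spread between libraries enters.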

Additional observations from a re-analysis of the deposited data

Results flagged for a closer look

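Of 18 sets of 4 values (9 genes in each arm), 2 held a library that stood far from the other 3 by Dixon's criterion, which chance gives in about 1 of 20 sets. Replicate 2 of the antibody arm had 45.2 CPM of Foxo3, where the nearest antibody library had 50.1 CPM (gap 0.835 of the range), and still lay above all libraries without antibody. Replicate 4 of the arm without antibody had 18.4 CPM of Bcl6, where the nearest had 20.3 CPM (gap 0.915 of the range), and lay above all antibody libraries. Without it the log2 fold change of Bcl6 was -0.31 (adjusted p = 0.0262).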

How the results depend on the processing

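Cited2 and Gadd45a kept their sign and call under all 19 alternatives, Foxo3 in 16 and Bcl6 in 9. The replicate numbers did not pair the libraries (correlation of same-numbered deviations -0.097 to 0.075 over 9870 genes), and with the replicate number as a block 3 of the 9 genes, 5 other targets, 2 regulators and 1005 genes in all were called, with Foxo4 at 0.00083. Without a filter 2 of the 9 were called as higher and Foxo4 was at 0.0017. With voom Foxo4 was at 0.00097, and with voom sample weights 4 regulators were called and Ccng2 was at 0.0011. On log2(RPKM + 1) 2 of the 9 were called, 0 as higher, with 1 regulator and 675 genes in all, and on log2(RPKM + 0.1) 2, 0, 1 and 670, with Foxo4 at 0.0085 and 0.0096. Of all genes, 2723 and 2715 had an unadjusted p under 0.05 on these scales. Without replicates 1 and 4 of the arm without antibody 9 regulators and 2263 genes were called, with Ccng2 at 0.068 and Akt1 at -0.047. With 1 library left out, 3 to 4 of the 9 genes were called, 0 to 1 as higher, with 4 to 6 other targets, 1 to 3 regulators and 679 to 1485 genes, and log2 fold changes lay between -0.079 and 0.040 for Foxo4 and between -0.11 and 0.023 for Ccng2. The lowest count in all came without replicate 2 of the antibody arm and the highest without replicate 1 of the other. The cause of these differences was not tested. Foxo6, at 3 to 9 counts per library, was too low to be tested.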
